A study of Mus musculus with 8 samples.

Results

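Genes of the interferon response and of MHC class I antigen presentation were followed in the brain cortex of TDP-43Q331K mice and of wild-type (WT) mice. The 31 genes were chosen by symbol from the pathway, with earlier results of these data known. Of them, 30 were measured among the 15693 genes of the tables. Usp18 was not analysed here. All 30 passed edgeR's filter on low counts, which removed 0 genes. TDP-43 is the RNA-binding protein encoded by Tardbp, and the Q331K line carries a mutation linked to amyotrophic lateral sclerosis. The WT group held 4 libraries and the TDP-43Q331K group held 4, all from mice aged 4 months with no treatment named and all labelled batch 1. The labels call the controls C57BL/6J, whereas the text of the series calls them c57bl6/n, so the substrain was not settled. The background of the mutants is not given here. Any difference in background between the groups cannot be told apart from the TDP-43Q331K allele. Neither source says whether the TDP-43Q331K allele is a transgene or an edited mouse gene, nor which promoter drives it.

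Interferons are secreted proteins that cells release after sensing foreign or misplaced nucleic acid. Type I interferon binds a receptor that acts through the kinases JAK1 and TYK2, and one of their targets is STAT2. STAT2 and IRF9 are subunits of a complex, ISGF3, that binds the interferon-stimulated response element (ISRE) in the promoters of antiviral genes. A part of this programme raises the display of peptides on MHC class I, for which cells need a heavy chain such as H2-K1, the light chain B2m, the peptide transporter TAP and the chaperone tapasin. In the brain, microglia, astrocytes, endothelial cells and neurons can all respond, and in resting tissue most of these genes are transcribed at a low level.

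Polyadenylated RNA was sequenced, and total counts per library ran from 45253021 to 58115164. Levels are CPM, the counts divided by the TMM-scaled library size, and 1 CPM was worth 45.3 counts or more. Of all genes, 54 were called higher and 94 lower in TDP-43Q331K, and 64 higher and 73 lower with library size as the only scaling. Tardbp itself was between 171 and 198 CPM in WT and between 141 and 167 CPM in TDP-43Q331K, and its log2 fold change of -0.25 missed the threshold in edgeR (adjusted p = 0.106) but was called lower by DESeq2 (adjusted p = 0.0117). The groups did not overlap for Tardbp. The 6 markers of cortical excitatory neurons, Slc17a7 among them, summed to between 1620 and 1870 CPM in WT. In TDP-43Q331K they summed to between 1530 and 1700 CPM. Their log2 fold change was positive in 0 of the 6, and 0 passed edgeR's test. Fezf2 (-0.34) and Neurod6 (-0.25) had an unadjusted p under 0.05 in edgeR, with overlapping groups. The labels do not give the sex. Xist, which female cells transcribe, was between 876 and 1010 CPM in WT replicates 2 and 3 and TDP-43Q331K replicates 1 and 2, and at most 1.37 CPM in the other 4 libraries. Summed choroid plexus markers were at 404, 16.5, 17.1 and 18.2 CPM in WT replicates 1 to 4. In TDP-43Q331K replicates 1 to 4 they were at 47, 206, 155 and 580 CPM. Every mutant sum was thus above those of WT replicates 2 to 4, while WT replicate 1 overlapped the mutants. All 6 of these markers had a positive log2 fold change, and 0 passed edgeR's test.

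RefSeq promoter windows were found for 24 of the 30 measured genes and are shown because the ISRE is the element through which ISGF3 acts. Each window is given as the 250 bases before a transcription start, in build GRCm38.p6, 5′ to 3′ on the gene's strand, while the submitters' notes name GRCm39 for their own processing. Capitals mark the ISRE core searched for, which is GAAA, 2 bases of any kind and GAAA again, on either strand. The windows shown are those of the 2 measured genes with the smallest p, Irf9 and Dtx3l, and of 4 classical interferon targets. Irf9 has a pair of annotated starts, at chr14:55603735-55603984 (plus strand) and chr14:55604329-55604578 (plus strand). The others are Dtx3l at chr16:35939028-35939277 (minus strand), Ifit1 at chr19:34640639-34640888 (plus strand), Ifit3 at chr19:34583279-34583528 (plus strand), Ifit3b at chr19:34607707-34607956 (plus strand) and Isg15 at chr4:156200819-156201068 (minus strand).
Irf9, upstream start: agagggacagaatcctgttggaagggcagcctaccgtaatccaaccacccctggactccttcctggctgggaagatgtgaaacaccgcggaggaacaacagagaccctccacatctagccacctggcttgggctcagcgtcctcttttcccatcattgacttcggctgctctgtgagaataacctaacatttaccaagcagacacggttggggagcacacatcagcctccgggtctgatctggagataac
Irf9, downstream start: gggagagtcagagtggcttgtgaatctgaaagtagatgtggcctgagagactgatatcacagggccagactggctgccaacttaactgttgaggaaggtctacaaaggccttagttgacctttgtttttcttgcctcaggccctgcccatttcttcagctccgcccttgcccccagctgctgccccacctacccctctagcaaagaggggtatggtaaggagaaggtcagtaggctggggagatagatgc
Dtx3l: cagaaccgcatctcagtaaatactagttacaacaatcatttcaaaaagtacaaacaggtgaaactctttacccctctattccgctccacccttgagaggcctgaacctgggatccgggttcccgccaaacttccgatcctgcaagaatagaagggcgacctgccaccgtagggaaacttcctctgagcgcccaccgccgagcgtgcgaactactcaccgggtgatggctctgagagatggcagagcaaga
Ifit1: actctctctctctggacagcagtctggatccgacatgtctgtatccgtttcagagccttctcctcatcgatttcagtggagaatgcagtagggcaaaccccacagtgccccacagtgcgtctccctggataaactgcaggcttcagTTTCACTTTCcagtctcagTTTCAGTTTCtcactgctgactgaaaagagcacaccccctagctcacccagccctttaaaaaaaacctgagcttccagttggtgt
Ifit3: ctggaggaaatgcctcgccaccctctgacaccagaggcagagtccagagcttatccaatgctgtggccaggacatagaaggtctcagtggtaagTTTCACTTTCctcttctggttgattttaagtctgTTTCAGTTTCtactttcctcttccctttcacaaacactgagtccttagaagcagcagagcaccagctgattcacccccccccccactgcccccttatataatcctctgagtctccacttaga
Ifit3b: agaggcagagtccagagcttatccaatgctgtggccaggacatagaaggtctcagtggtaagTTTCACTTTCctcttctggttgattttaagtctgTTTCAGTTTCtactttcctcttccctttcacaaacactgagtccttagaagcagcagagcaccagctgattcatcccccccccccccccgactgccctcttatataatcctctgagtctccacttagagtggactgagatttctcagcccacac
Isg15: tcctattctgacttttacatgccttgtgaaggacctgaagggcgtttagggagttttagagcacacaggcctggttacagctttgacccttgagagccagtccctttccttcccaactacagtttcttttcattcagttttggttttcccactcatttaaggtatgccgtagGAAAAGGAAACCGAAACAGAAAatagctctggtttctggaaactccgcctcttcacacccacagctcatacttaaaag

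The Ifit1 window held 2 ISRE cores separated by 9 bases. Ifit3 and Ifit3b each held 2 cores separated by 24 bases. Isg15 held 3 cores, each overlapping the next. No match to these letters was found in either Irf9 window or in the Dtx3l window. Over the window from 250 bases before to 50 after each start, 9 of the 24 genes (37.5%) held an ISRE core, the others being Stat2, Bst2, Ifih1, B2m and Eif2ak2. The same letters occurred in 3.99% of the 27025 genes with a RefSeq window. The genes were listed because they belong to this pathway, so these shares describe the list.

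The comparison of the genotypes addresses transcript changes across this tissue in the disease model. None of the 30 measured genes passed edgeR's quasi-likelihood test at an adjusted p under 0.05 over all genes, where 0.943% of all genes passed. At an unadjusted p under 0.05 there were 2 of 30 (6.67%), Irf9 and Dtx3l, against 15.7% of all genes. Both were higher in TDP-43Q331K, where 7.91% of all genes were higher by that rule. DESeq2 called 1 of the 30 (3.33%), Irf9, against 4.47% of all genes. Irf9 was higher, where 1.84% of all genes were called higher by DESeq2. The groups did not overlap in 2 of the 30, Irf9 and Ifi35, against 9.68% of all genes. Both were higher, where 4.49% of all genes were higher without overlap.

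The signs lay mostly one way. The log2 fold change of TDP-43Q331K over WT was positive in 27 of the 30 genes, or 90%, where it was positive in 51.8% of all genes. The median over the 30 genes was 0.147, and over all genes 0.004. The 3 negative values were small: -0.06 for Rtp4, -0.03 for Irf1 and -0.004 for Samhd1. The largest positive values were 0.40 for Ifi35, 0.34 for Ifit1 and 0.32 for Dtx3l. These genes are regulated together, so their signs are not independent of each other. They were also chosen with earlier results of these data known, so the share of positive signs describes the list. In bulk tissue, more cells of a type and more RNA per cell cannot be told apart.

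**Figure D1:**
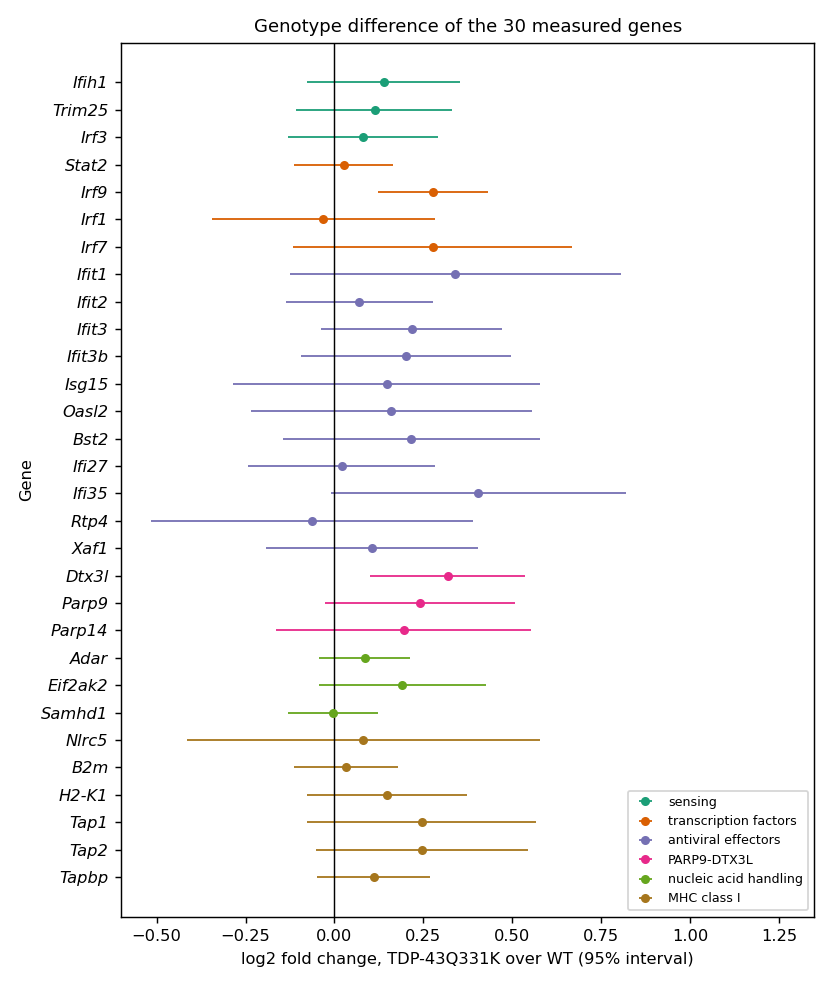
The log2 fold change of TDP-43Q331K over WT (horizontal axis) is plotted with its 95% interval for each of the 30 measured genes, coloured by role, from 4 libraries a group. Points lie to the right of 0 in 27 of 30 genes, and the interval lies wholly above 0 for Irf9 and Dtx3l.

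The shift was uneven between libraries. Each gene was set against its mean log2 level in WT and the median over the 30 genes was taken in each library. This median was -0.09, 0.056, -0.004 and 0.052 in WT replicates 1 to 4. It was 0.032, 0.261, 0.232 and 0.068 in TDP-43Q331K replicates 1 to 4. Replicates 2 and 3 of TDP-43Q331K thus stood above all other libraries, while replicates 1 and 4 lay within or just above the WT range. The genes described below make up this median, so their values in replicates 2 and 3 are no separate support for it. TDP-43Q331K replicate 2 held the highest value of 12 genes and replicate 3 that of 11, so that together they held 23 of the 30 maxima (76.7%), where over all genes they held 26.7%. WT replicate 1 held the lowest value of 12 of the 30 genes (40.0%), against 11.6% over all genes. Over all genes, the same median lay between -0.003 and 0.009 in every library. Without TDP-43Q331K replicate 2 the median log2 fold change of the 30 genes was 0.096, a drop of more than 1.5-fold. Leaving out any other single library gave between 0.114 and 0.184.

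**Figure D2:**
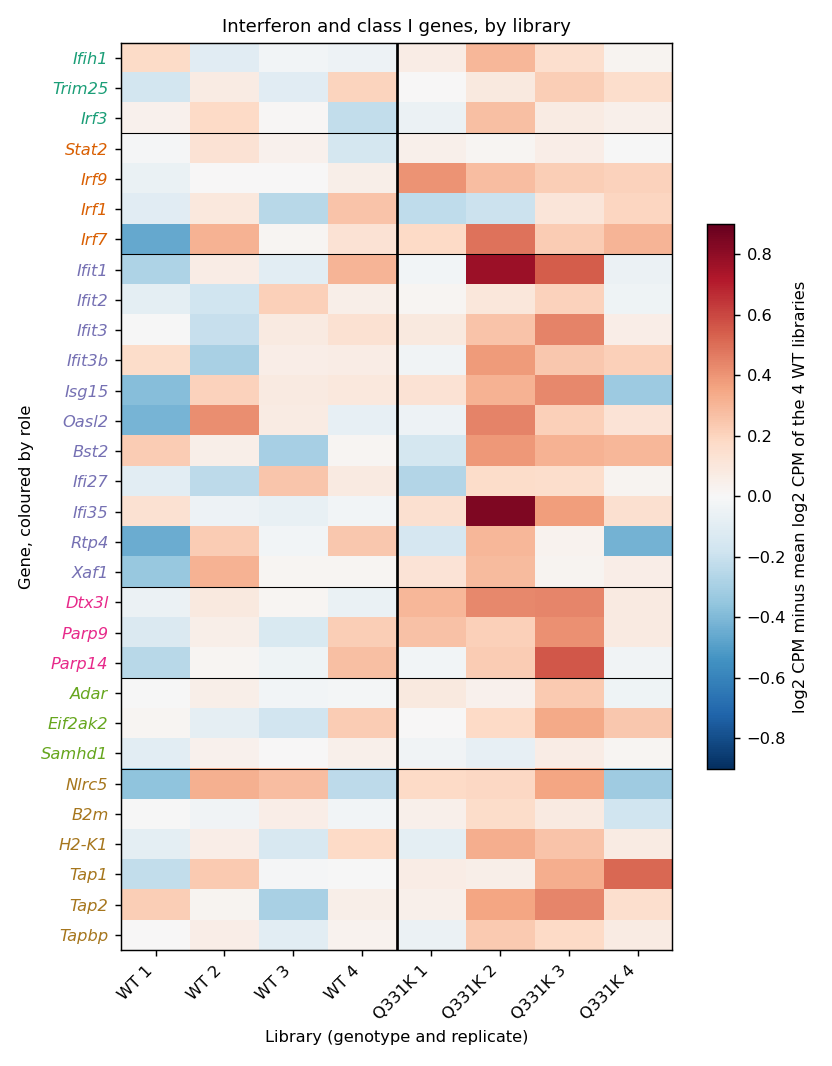
Each cell is the log2 CPM of 1 gene (rows, grouped by role) in 1 library (columns, WT at left and TDP-43Q331K at right) minus the mean log2 CPM of the 4 WT libraries. The columns of TDP-43Q331K replicates 2 and 3 are the reddest, with medians of 0.261 and 0.232.

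The libraries of TDP-43Q331K that stood high were of both sexes by Xist, replicate 2 female and replicate 3 male. The split by sex was chosen after seeing the data. Within the libraries read as female (2 against 2), the log2 ratio of group means was positive in 22 of the 30 genes and the median was 0.102. Over all genes it was positive in 49.9%, with a median of 0. Within the libraries read as male (2 against 2), 28 of the 30 were positive and the median was 0.165. Over all genes 52.5% were positive there, with a median of 0.009. The interaction of genotype and sex passed edgeR's test in 0 of the 30 genes and in 0 of all genes. With 2 libraries per sex and group, this test may miss an interaction. Only Tap1 had an unadjusted interaction p under 0.05 (0.0388, adjusted p 0.723), with a log2 ratio of -0.06 in females and 0.535 in males.

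Transcripts of other cells were read beside these values. The 10 homeostatic microglia markers, such as P2ry12 and Tmem119, summed to between 343 and 359 CPM in WT, and to 315, 358, 334 and 326 CPM in TDP-43Q331K replicates 1 to 4. The log2 fold change was positive in 1 of these 10, Sall1. It was at 22.7, 21.5, 45.2 and 38.1 CPM in WT and at 35.8, 41, 45.8 and 27.3 CPM in the mutants. Sall1 is part of these sums and of the microglia covariate given below. P2ry12, a purinergic receptor gene, was at 44.6, 43, 37.2 and 40.4 CPM in WT and at 34.1, 33.5, 34.3 and 36.4 CPM in the mutants (-0.26, edgeR adjusted p = 0.0906, DESeq2 adjusted p = 0.00744). Its relative P2ry13 was also lower without overlap (-0.405, edgeR adjusted p = 0.061, DESeq2 adjusted p = 0.00205). Siglech and Gpr34 were each at -0.19, with an unadjusted p under 0.05 and overlapping groups. The 8 endothelial markers summed to between 178 and 232 CPM in WT and between 174 and 227 CPM in TDP-43Q331K. The 6 astrocyte markers summed to between 3630 and 4480 CPM in WT and between 3770 and 4250 CPM in TDP-43Q331K. The 6 oligodendrocyte markers summed to between 3510 and 4140 CPM in WT and between 3590 and 5010 CPM in TDP-43Q331K. Of mural and meningeal fibroblast markers, 5 of 6 each were measured, with WT sums of 120 to 143 and 32.9 to 44.6 CPM and mutant sums of 110 to 133 and 19.5 to 43.8 CPM. The ranges of these 6 sums overlapped between the groups. Of 8 T and NK cell markers, 2 were measured, Cd4 and Lck, with sums between 4.07 and 14.2 CPM in WT and between 5.31 and 11.1 CPM in TDP-43Q331K. Of 9 markers of monocytes, neutrophils and border macrophages, 4 were measured, with sums between 3.59 and 9.57 CPM in WT and between 6.02 and 7.85 CPM in TDP-43Q331K. Of these 4, 2 had a positive log2 fold change. S100a9 was at 0.182, 0.19, 0.115 and 0.397 CPM in WT and at 1.24, 0.219, 1.06 and 0.382 CPM in the mutants. Its groups overlapped (log2 fold change 1.72, SE 0.58, edgeR adjusted p = 0.186). Of 4 B cell markers, 0 were measured. The part of these cells in the interferon gene values was not tested. The 11 markers of olfactory bulb and thalamus, which adjoin the cortex, summed to between 196 and 332 CPM in WT and between 296 and 380 CPM in TDP-43Q331K. All 11 had a positive log2 fold change, and 0 passed edgeR's test. Genes of the olfactory bulb and of the thalamus differed between libraries in separate ways, seen once their values were known. Eomes, a bulb marker, was at 0.182, 0.0862, 13.3 and 9.51 CPM in WT and at 8.38, 18.4, 17.2 and 4.07 CPM in the mutants. Cdhr1, another, was at 10.5, 13.9, 74.3 and 53.1 CPM in WT and at 51, 88.9, 79.6 and 27.1 CPM in the mutants. Both were highest in mutant replicates 2 and 3, the libraries with the highest interferon gene medians, and both were lowest in WT replicates 1 and 2. WT replicate 3, whose interferon gene median was -0.004, was the next highest. WT replicate 2, low for both, had the highest interferon gene median in WT, 0.056. Calb2 was also highest in mutant replicates 2 and 3, but other bulb markers were ordered otherwise. Doc2g was highest in WT replicate 3, at 15.9 CPM against 15.6 and 14.7 CPM in mutant replicates 2 and 3. Tbx21 was at 4.3 CPM in WT replicate 3 and at 3.75 CPM in mutant replicate 3. The thalamic Prkcd stood apart in mutant replicate 4, at 67.7 CPM against at most 16.4 CPM elsewhere. The part of this tissue in the interferon gene values beyond the covariate fit given next was not tested. In a two-sided exact permutation test of the sums over the libraries, which can give no p under 0.0286, adjusted over 11 lists, the olfactory and thalamic list gave p = 0.0571 (adjusted p 0.628), and no list had an adjusted p below that. With the mean of the 11 olfactory and thalamic markers as a covariate, 24 of the 30 interferon and class I genes were positive, with a median of 0.106. That mean pools bulb and thalamus markers, which differed in separate ways, so the fit adjusts for neither tissue alone. With microglia markers as a covariate, 28 were positive and the median was 0.259. In that fit 8 of the 30 (against 10.5% of all genes) had an unadjusted p under 0.05, and 4 of all genes passed edgeR's test. Because only 1 of the 10 microglia markers had a positive log2 fold change, this covariate partly follows genotype, and the fit cannot separate microglia from genotype. Sall1, part of the covariate, was lowest in WT replicates 1 and 2, as were Eomes and Cdhr1. With choroid plexus markers, an adjustment chosen after seeing the data, 29 were positive and the median was 0.128.

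Among the transcription factors, Irf9 differed most. IRF9 is the DNA-binding subunit of ISGF3. Irf9 (ENSMUSG00000002325) was at 8.77, 9.2, 9.2 and 9.51 CPM in WT, in replicate order, and at 12.1, 11.1, 10.7 and 10.6 CPM in the mutants. All 4 mutant libraries were above all 4 controls, and the highest was replicate 1, which was not high for the list as a whole. Irf9 averaged 9.17 ± 0.302 CPM in WT mice and 11.1 ± 0.694 CPM in the mutants (SD, n = 4 each). Its log2 fold change was 0.28 with SE 0.07 and an edgeR adjusted p of 0.0966. DESeq2 gave 0.27 with an adjusted p of 0.0314, so that the call rested on the tool. Over the 15 alternatives with all libraries its adjusted p lay between 0.0314 and 0.481, the highest with the microglia covariate, where the log2 fold change was 0.24. Over the 8 fits that leave out 1 library, the log2 fold change lay between 0.23 and 0.30. The unadjusted p was under 0.05 in 8 of these fits, and the adjusted p in 0. Irf9 was singled out by its unadjusted p in the fit of all libraries, so these fits are no separate support. Irf9 shares 123 exonic bases with Rnf31, a neighbour on the same strand that encodes a ubiquitin ligase, and reads there may be assigned to either. Rnf31 had a log2 fold change of 0.05 (edgeR adjusted p = 0.824).

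The partner of IRF9 in ISGF3, Stat2, was at 27.9, 30.8, 29 and 25.3 CPM in WT and at 29.1, 28.6, 29.3 and 28.2 CPM in the mutants. Stat2 averaged 28.3 ± 2.29 CPM in WT mice and 28.8 ± 0.515 CPM in the mutants (SD, n = 4 each), with a log2 fold change of 0.03 and a 95% interval from -0.114 to 0.165. Irf7, which amplifies type I interferon production, was at 1.03, 1.76, 1.43 and 1.54 CPM in WT and at 1.6, 1.99, 1.66 and 1.74 CPM in the mutants. WT replicate 1 was low, and the groups overlapped (log2 fold change 0.28, SE 0.18, edgeR adjusted p = 0.486). Irf1, which also serves interferon gamma signalling, averaged 4.19 ± 0.645 CPM in WT mice and 4.10 ± 0.599 CPM in the mutants (SD, n = 4 each).

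On the side of sensing, Ifih1 encodes MDA5, a sensor of long double-stranded RNA, and Trim25 a ubiquitin ligase that acts on the sensor RIG-I. Irf3 encodes the factor that sensors activate to start interferon transcription. Their log2 fold changes were 0.14, 0.11 and 0.08, with adjusted p between 0.532 and 0.73 in edgeR, and the groups overlapped in each. Irf3 was at 14.8, 16.3, 14.5 and 12.4 CPM in WT and at 13.9, 17.4, 15.2 and 14.9 CPM in the mutants.

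Of the 11 measured antiviral effectors, 10 had a positive log2 fold change, with a median of 0.16. The IFIT proteins bind foreign RNA and block its translation. Ifit1 was at 1.63, 2.07, 1.85 and 2.45 CPM in WT and at 1.94, 3.37, 2.89 and 1.91 CPM in the mutants. Replicates 2 and 3 exceeded every WT library, whereas replicates 1 and 4 lay inside the WT range (log2 fold change 0.34, SE 0.21, edgeR adjusted p = 0.467). Ifit3 was at 4.88, 4.24, 5.19 and 5.38 CPM in WT and at 5.22, 5.85, 6.68 and 5.12 CPM in the mutants, the same pair again being above every control (log2 fold change 0.22, edgeR adjusted p = 0.395). Its paralog Ifit3b had a log2 fold change of 0.20, but the transcripts of the pair are 97.8% identical over 1700 bases, so reads may be shared between them. Ifit2, averaging 13.1 ± 1.59 CPM in WT mice and 13.8 ± 1.03 CPM in the mutants (SD, n = 4 each), had a log2 fold change of 0.07, which became -0.092 once olfactory and thalamic markers were adjusted for.

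Ifi35 encodes a small interferon-induced protein. It was at 1.23, 1.09, 1.07 and 1.10 CPM in WT and at 1.24, 2.00, 1.46 and 1.24 CPM in the mutants. The groups did not overlap, but mutant replicates 1 and 4, at 1.24 CPM, lay next to WT replicate 1, at 1.23 CPM, and counts were between 50 and 110 a library. Its log2 fold change was 0.40 with SE 0.19 (edgeR adjusted p = 0.33). Bst2 encodes tetherin, which holds budding virus at the cell surface, and was at 2.20, 1.95, 1.53 and 1.90 CPM in WT and at 1.68, 2.46, 2.33 and 2.31 CPM in the mutants (log2 fold change 0.22, edgeR adjusted p = 0.562). Here replicates 2 to 4 of the mutant were above every control and replicate 1 was not. Isg15, a ubiquitin-like modifier, was at 1.19, 1.79, 1.64 and 1.65 CPM in WT and at 1.70, 1.93, 2.09 and 1.24 CPM in the mutants (log2 fold change 0.15, edgeR adjusted p = 0.761). The remaining effectors were Oasl2, a relative of the oligoadenylate synthetases, at a log2 fold change of 0.16, the pro-apoptotic Xaf1 at 0.11, Ifi27 at 0.02 and the receptor transporter Rtp4 at -0.06. Ifi27 was at 16.7, 15.2, 21.3 and 18.9 CPM in WT and at 14.9, 20.1, 20 and 18.2 CPM in the mutants. Rtp4 and Ifi27 changed sign under some alternatives.

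**Figure D3:**
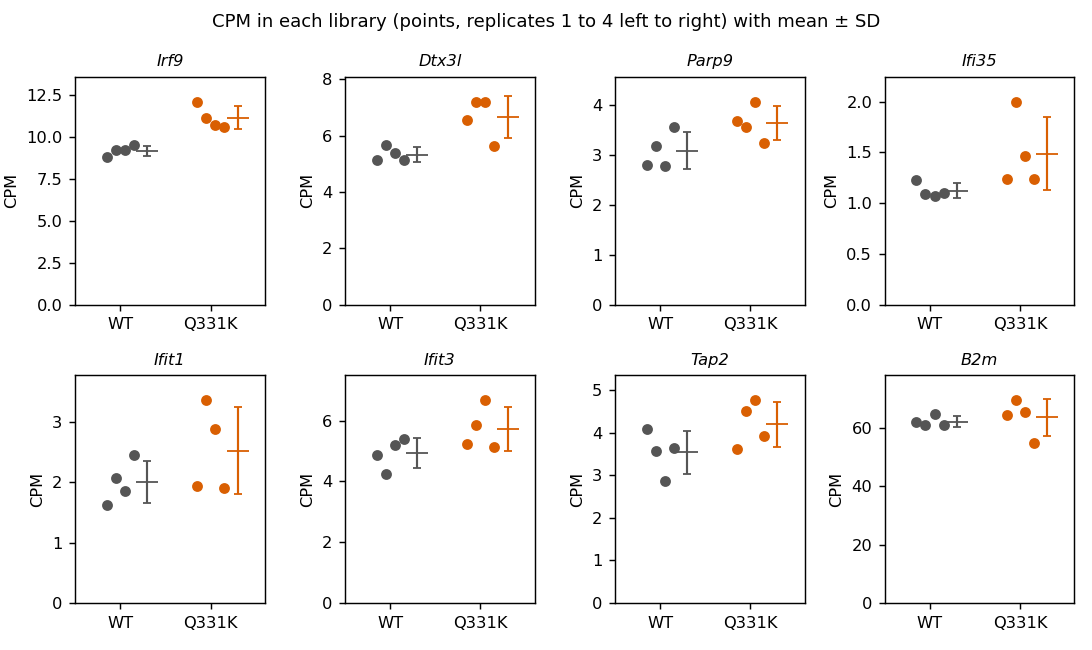
CPM (vertical axes, from 0) of 8 genes in the 4 WT and 4 TDP-43Q331K libraries is shown as points, with the mean ± SD beside them. Irf9 does not overlap between the groups, whereas in Ifit1 and Tap2 only mutant replicates 2 and 3 lie above every WT library.

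PARP9 and the ubiquitin ligase DTX3L form a heterodimer that takes part in interferon signalling and DNA repair, and PARP14 is a related ADP-ribosyltransferase. Dtx3l (ENSMUSG00000049502) was at 5.14, 5.67, 5.38 and 5.12 CPM in WT and at 6.56, 7.20, 7.21 and 5.63 CPM in the mutants. Replicates 1 to 3 of the mutant were above every control, and replicate 4 lay just under the highest. Its log2 fold change was 0.32 with SE 0.10 (edgeR adjusted p = 0.155). When each library was left out in turn it lay between 0.28 and 0.39, with an unadjusted p under 0.05 in 8 of 8 fits. Dtx3l, like Irf9, was singled out by its p in the fit of all libraries. The fits that leave out 1 library reuse the others, so they are no separate support. DESeq2 gave an adjusted p of 0.0969, and the 15 alternatives lay between 0.0969 and 0.498. Parp9 was at 2.80, 3.19, 2.79 and 3.57 CPM in WT and at 3.68, 3.57, 4.08 and 3.25 CPM in the mutants, so that the groups overlapped (log2 fold change 0.24, SE 0.12, edgeR adjusted p = 0.37). Dtx3l and Parp9 lie on opposite strands and share 458 exonic bases. No source used here states whether counting used the strand, so reads of the pair in this stretch cannot be assigned with certainty. Parp14 averaged 3.07 ± 0.465 CPM in WT mice and 3.51 ± 0.71 CPM in the mutants (SD, n = 4 each).

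Adar encodes the enzyme that edits adenosine in double-stranded RNA and so keeps the cell's own RNA from being sensed. It was at 143, 149, 141 and 142 CPM in WT and at 153, 148, 169 and 140 CPM in the mutants. Adar averaged 144 ± 3.59 CPM in WT mice and 153 ± 12.4 CPM in the mutants (SD, n = 4 each), with a log2 fold change of 0.09 and a 95% interval from -0.04 to 0.21. Adar shares 1365 exonic bases with Chrnb2 on the opposite strand, whose log2 fold change was 0.03. Eif2ak2 encodes PKR, the kinase that halts translation when it binds double-stranded RNA. It was at 7.46, 7, 6.57 and 8.67 CPM in WT and at 7.40, 8.36, 9.37 and 8.72 CPM in the mutants (log2 fold change 0.19, edgeR adjusted p = 0.417). Samhd1, a dNTP hydrolase, averaged 19.7 ± 0.871 CPM in WT mice and 19.7 ± 0.819 CPM in the mutants (SD, n = 4 each), with a 95% interval of the log2 fold change from -0.13 to 0.12.

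All 6 genes of class I presentation had a positive log2 fold change, with a median of 0.129 and edgeR adjusted p between 0.406 and 0.898. Tap1 and Tap2 encode the chains of the transporter that carries peptides into the endoplasmic reticulum. Tap2 was at 4.09, 3.57, 2.86 and 3.64 CPM in WT and at 3.62, 4.50, 4.77 and 3.91 CPM in the mutants (log2 fold change 0.25, SE 0.13). Tap1 was at 2.20, 3.02, 2.54 and 2.56 CPM in WT and at 2.68, 2.66, 3.22 and 3.67 CPM in the mutants (log2 fold change 0.245, SE 0.15). The groups overlapped in both, and the highest library was mutant replicate 3 for Tap2 and mutant replicate 4 for Tap1. Tap1 shares 212 exonic bases with Psmb9, an immunoproteasome subunit gene on the opposite strand, which was at 0.30 (edgeR adjusted p = 0.496). Tapbp, which encodes tapasin, had a log2 fold change of 0.11. It overlaps Zbtb22 on the same strand over 149 exonic bases, and Zbtb22 was at -0.17 (edgeR adjusted p = 0.118).

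H2-K1, a class I heavy chain, was at 16.6, 18.4, 16.0 and 20 CPM in WT and at 16.6, 22.2, 21.1 and 18.6 CPM in the mutants (log2 fold change 0.15, SE 0.10, edgeR adjusted p = 0.522). Replicates 2 and 3 of the mutant were above every control. H2-K1 is 90.6% identical to H2-D1 over 1404 bases and resembles further class I genes, so its reads may be divided among them. B2m, the invariant light chain, was at 61.9, 60.9, 64.8 and 61.1 CPM in WT and at 64.3, 69.6, 65.6 and 54.8 CPM in the mutants. Mutant replicate 2 was the highest library and replicate 4 the lowest. B2m averaged 62.2 ± 1.80 CPM in WT mice and 63.6 ± 6.26 CPM in the mutants (SD, n = 4 each), with a log2 fold change of 0.03 and a 95% interval from -0.115 to 0.18. Nlrc5, the transactivator of class I genes, ran from 0.686 to 1.13 CPM over all libraries and had a log2 fold change of 0.08 with an interval from -0.41 to 0.58.

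Levels between genes were compared per length, as WT mean CPM divided by kilobases of annotated exon. B2m led with 72.3 CPM per kb, followed by Adar at 17.7 CPM per kb and Ifi27 at 12.3 CPM per kb. H2-K1 was at 6.04 CPM per kb, Tapbp at 5.17 CPM per kb, Stat2 at 4.77 CPM per kb and Irf3 at 4.21 CPM per kb. Isg15, at 2.08 CPM per kb, and Ifit1, at 0.753 CPM per kb, were lower, and Nlrc5 was lowest at 0.106 CPM per kb. The genes at the head of this order had small log2 fold changes, 0.03 for B2m, 0.09 for Adar and 0.02 for Ifi27. The 9 genes whose RefSeq window held an ISRE core had log2 fold changes from 0.03 to 0.34 with a median of 0.191. The 15 with a window but no core ran from -0.03 to 0.40 with a median of 0.113. Irf9 and Dtx3l, the 2 with an unadjusted p under 0.05, were both among the 15.

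Other genes of the pathway were read in 7 further lists, with 119 of the 169 listed genes measured. The counts and shares below are of the measured genes. None passed edgeR's test over all genes. At an unadjusted p under 0.05 there were 19 (16.0%, against 15.7% of all genes), 12 of them higher and 7 lower, and DESeq2 called 3, Stat3, Pnpt1 and Lsm11, where it called 4.47% of all genes. By the unadjusted rule 7.91% of all genes were higher and 7.77% lower, which is the background for the counts of each list. The log2 fold change was positive in 87 of the 119, or 73.1%, against 51.8% of all genes. These lists, too, were chosen with earlier results of these data known.

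**Figure D4:**
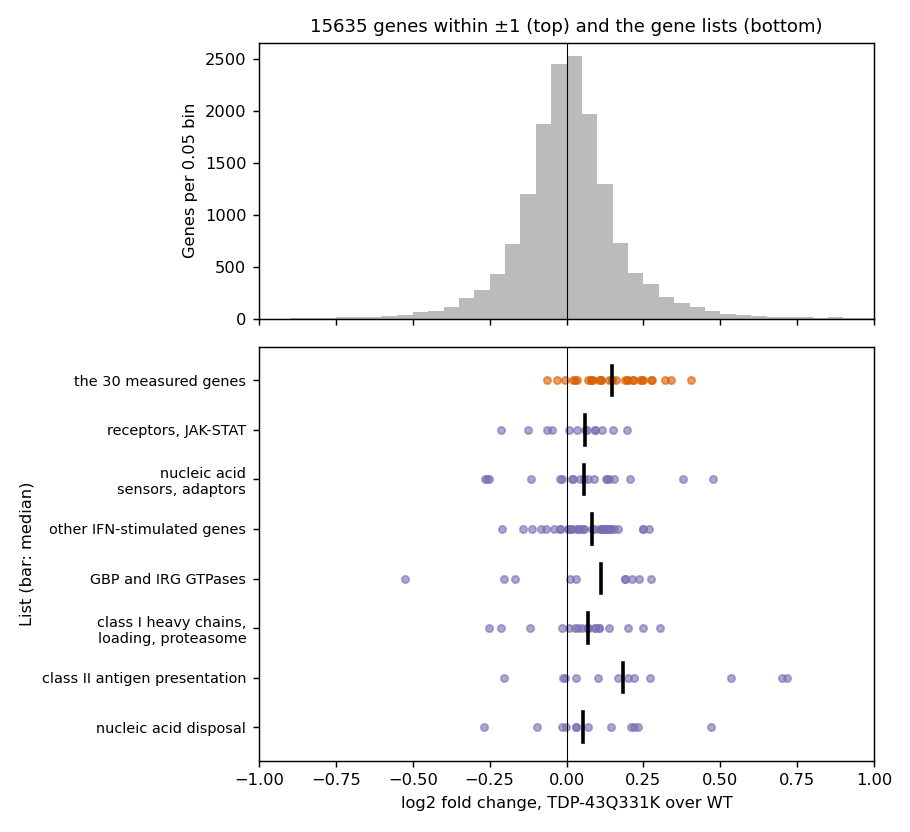
The upper panel counts genes by log2 fold change of TDP-43Q331K over WT in bins 0.05 wide, for the 15635 of 15693 genes between -1 and 1. The lower panel shows each gene of the 30 (orange) and of the 7 further lists (purple) with the list median as a bar, 0.147 for the 30 genes and between 0.052 and 0.184 for the further lists.

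Among 13 receptor and JAK-STAT genes, 9 were positive with a median of 0.06, and 2 were higher and 2 lower at an unadjusted p under 0.05. Stat3, which serves cytokines of the interleukin-6 family, was at 49.1, 46.9, 48.4 and 49.1 CPM in WT and at 54.8, 57.9, 56.2 and 52.6 CPM in the mutants. The groups did not overlap (log2 fold change 0.195, SE 0.04, edgeR adjusted p = 0.0758, DESeq2 adjusted p = 0.00708). Ifngr1, a chain of the interferon gamma receptor, was at 0.15 (edgeR adjusted p = 0.236), and the kinase gene Tyk2 at -0.21 (0.241). Among 19 sensors and adaptors, 13 were positive with a median of 0.058, and 2 were higher and 0 lower at an unadjusted p under 0.05. Their smallest p values were for Tlr7, a receptor for single-stranded RNA, at 0.38 (edgeR adjusted p = 0.216), Dhx58, a relative of RIG-I, at 0.48 (0.256), and Tlr9, a receptor for CpG DNA, at -0.26 (0.355).

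Among 35 other interferon-stimulated genes, 27 were positive with a median of 0.082, and 3 were higher and 0 lower at an unadjusted p under 0.05. These were the secreted glycoprotein gene Lgals3bp at 0.25 (edgeR adjusted p = 0.216), the helicase-like Helz2 at 0.27 (0.289) and Nampt, an enzyme of NAD synthesis, at 0.11 (0.307). Among 10 GBP and IRG GTPases, which act on membranes of vacuoles that hold pathogens, 7 were positive with a median of 0.111, and 0 were higher and 1 lower by the same rule. Gbp4 went the other way, at 2.56, 2.57, 2.00 and 2.14 CPM in WT and at 1.5, 1.49, 1.97 and 1.49 CPM in the mutants, without overlap (log2 fold change -0.52, SE 0.15, edgeR adjusted p = 0.136). Igtp was at 0.27 (edgeR adjusted p = 0.321) and Gbp3 at 0.19 (0.502).

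Of 19 further class I and proteasome genes, 15 were positive with a median of 0.07, and 1 was higher and 2 lower by the same rule. The heavy chain H2-D1 was at 0.20 (edgeR adjusted p = 0.314), the immunoproteasome subunit Psmb10 at -0.21 (0.235) and the tapasin relative Tapbpl at -0.25 (0.248). Of 12 class II genes, 9 were positive with a median of 0.184, and 1 was higher and 1 lower by the same rule. Cd74, the invariant chain, was at 1.61, 1.41, 0.726 and 1.72 CPM in WT and at 1.42, 2.64, 2.38 and 2.51 CPM in the mutants. Its replicates 2 to 4 exceeded every control and replicate 1 did not (log2 fold change 0.72, SE 0.27, edgeR adjusted p = 0.238). H2-DMa, a peptide-loading chain, was at -0.20 (edgeR adjusted p = 0.247), and the class II promoter factor Rfx5 at 0.10 (0.389).

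Of 12 genes of nucleic acid disposal, 8 were positive with a median of 0.052, and 3 were higher and 1 lower at an unadjusted p under 0.05. Apobec3, a cytidine deaminase that restricts retroviruses, was at 2.12, 2.38, 1.93 and 2.32 CPM in WT and at 3.06, 2.62, 3.48 and 2.96 CPM in the mutants. The groups did not overlap (log2 fold change 0.47, SE 0.13, edgeR adjusted p = 0.118). Pnpt1, a mitochondrial RNA-degrading enzyme, averaged 27.7 ± 1.6 CPM in WT mice and 32.5 ± 1.92 CPM in the mutants (SD, n = 4 each) (log2 fold change 0.23, edgeR adjusted p = 0.114, DESeq2 adjusted p = 0.0311). Lsm11, a subunit of the U7 particle that processes histone transcripts, averaged 35.5 ± 2.75 CPM in WT mice and 29.5 ± 1.69 CPM in the mutants (SD, n = 4 each) (log2 fold change -0.27, edgeR adjusted p = 0.0946, DESeq2 adjusted p = 0.00881). Over the 15 alternatives the adjusted p lay between 0.00708 and 0.428 for Stat3, between 0.0311 and 0.582 for Pnpt1 and between 0.00881 and 0.483 for Lsm11.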

How the data were processed

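Per the labels' protocols, oligo(dT)-captured cortex RNA became stranded libraries for a NovaSeq X instrument. Without roles, the submitters' processing notes list GRCm39 as build and, as tools, R 4.3.1, edgeR 4.4.2 and STAR 2.7.6a. Which counter, strand setting and annotation were used is not stated in these sources. Raw gene counts were deposited by the authors, per the file headers. A second deposited table holds normalised signal, which equals those counts over TMM-scaled library sizes. No label says in words that the replicates are separate animals, so p-values measure the spread between these samples.

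The genotypes were tested with edgeR 4.0.16 under R 4.3.3 (TMM, filterByExpr, two-sided quasi-likelihood test, Benjamini-Hochberg over 15693 genes, threshold 0.05). Alternatives used DESeq2 1.42.0 and limma 3.58.1 on voom weights or on log2 of the deposited values plus 1. Symbols came from GENCODE M21 by identifier and were found for 15470 genes. Copies were sought with blastn (90% identity over 50% of a transcript). Members and lists were chosen with earlier results of these data known. Every measured member is named. By rule, none having passed the test, those with an unadjusted p under 0.05 and the 1 or 2 with the highest mean CPM per role are given in full, and from each further list the 3 with the smallest p. Other members given by library were picked after their values were seen. Ifi30 stood in 2 lists. On simulated counts of 15693 genes the test recovered 2% of 50 genes with a 1.15-fold change, 18% of 50 genes with a 1.25-fold change, 78% of 50 with 1.5-fold and 86% of 50 with 2-fold, and called 4 of 15493 unchanged genes.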

Additional observations from a re-analysis of the deposited data

Results flagged for a closer look

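Among the 51 genes named from the lists, 102 groups of 4 libraries were examined for 1 library far from the other 3, of which about 1 in 20 would be marked by chance, and 3 were. None was in the 30 interferon and class I genes. Gbp4 was at 1.97 CPM in TDP-43Q331K replicate 3 against 1.49 to 1.5 CPM in the other 3 mutant libraries, a gap of 0.978 of the range. H2-DMa was at 11.5 CPM in WT replicate 2 against 9.88 to 9.99 CPM, a gap of 0.934 of the range. Pnpt1 was at 35.4 CPM in TDP-43Q331K replicate 1 against 31.4 to 31.9 CPM, a gap of 0.874 of the range.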

How the results depend on the processing

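Of the 30 genes, 22 kept their sign under all 15 alternatives that use every library and all 8 fits that leave one out. The 15 include the fit without a filter, which had removed 0 genes, and the threshold of 0.10. Both repeat the main fit, so no sign could turn in them. Signs turned with the olfactory and thalamic covariate for Ifit2 (-0.092), Ifi27 (-0.201) and B2m (-0.002), with the endothelial covariate for Irf1 (0.009) and Samhd1 (0.010), with the microglia covariate for Rtp4 (0.25), with the choroid plexus covariate for Rtp4 (0.15) and Samhd1 (0.025), and with library size scaling for Samhd1 (0.011). Leaving out 1 library gave -0.11 to 0.058 for Irf1, -0.023 to 0.070 for Stat2, -0.053 to 0.11 for Ifi27, -0.20 to 0.045 for Rtp4, -0.035 to 0.018 for Samhd1, -0.014 to 0.098 for B2m and -0.029 to 0.20 for Nlrc5. The cause was not tested. The choroid plexus covariate was chosen after seeing the data.

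The number past the test was 1 (Irf9, higher) with DESeq2 and 1 (Irf9, higher) at a threshold of 0.10, and 0 in every fit that left out a library. The number at an unadjusted p under 0.05 was 8 with the microglia covariate (10.5% of all genes), 4 with the endothelial covariate (16.8%), and 2 to 6 without 1 library (11.5% to 16.5%). Irf9 was not among the 8. The number of negative values was 1 with the endothelial, 6 with the olfactory and thalamic and 1 with the choroid plexus covariate, and 1 to 5 without 1 library. The median was 0.259 with the microglia covariate and 0.096 to 0.184 without 1 library. Non-overlapping genes were 1 with upper quartile scaling and 2 to 6 without 1 library, where fewer libraries made them 11.6% to 15.3% of all genes, against 9.68%. Of all genes, 148 passed, against 701 with DESeq2, 4 with the microglia, 12 with the olfactory and thalamic and 80 with the choroid plexus covariate, 396 at a threshold of 0.10 and 51 to 129 without 1 library. The further lists held 3 genes past the test with DESeq2 and 2 (Stat3 and Lsm11) at 0.10. With library size scaling, the genotype difference of summed astrocyte markers turned to 3.23 CPM and that of endothelial markers to 0.196 CPM. Upper quartile scaling left 28.2% of all calls higher, against 36.5%.

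Same-numbered libraries did not deviate together (correlations between -0.412 and 0.033), so the replicate numbers were not taken as pairs. With replicate number as a block, 14 of all genes and 0 of the 30 passed, and the median was 0.142. Depth limits the rarest genes, Nlrc5 having 34 to 64 counts a library.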
